A study of Chlamydomonas reinhardtii with 90 samples.

Results

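In Chlamydomonas reinhardtii, a unicellular green alga, 326 of the 15541 genes tested (2.1%) stayed high at every sampling between 0.5 h and 24 h of heat at 40°C. These genes were chosen by their own values. For each gene the mean log2 CPM (read counts scaled to the library size after TMM normalization, which adjusts it to the bulk of genes) of a group of 3 libraries was compared with the mean of the pre-heat libraries of the same treatment, and the difference, called d, had to be 1.5 or more at each of the 7 samplings (0.5, 1, 2, 4, 8, 16 and 24 h at 40°C). Genes with at least 10 reads in at least 9 of the 90 libraries were tested, out of 17741 in the table. The read filter kept 311 of the 326 genes without the help of the 40°C heat libraries, while 15 passed only through them. Because the rule used the 40°C pre-heat and 40°C heat libraries from 0.5 h on, values in those libraries are description and carry no test. So is every d at 40°C, heat 0 h and recovery included, because each subtracts the pre-heat mean.

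All cultures were the wild-type strain CC1690 (21gr, mt+), grown mixotrophically in acetate-containing TAP medium under constant light and constant air. The photobioreactors diluted them automatically to hold an optical density that tracks total chlorophyll. Every culture was held at 25°C first, then heated to 40°C or to 35°C for 24 h in separate photobioreactors, then returned to 25°C for 48 h. Messenger RNA was sequenced at 15 times per treatment with 3 libraries (A, B and C) each: before heat (pre-heat), on reaching the temperature (heat 0 h), after 0.5, 1, 2, 4, 8, 16 and 24 h of heat, on regaining 25°C (recovery 0 h), and after 2, 4, 8, 24 and 48 h of recovery. Whether one letter marks one culture through the whole course is not stated, so the p-values measure the spread between these libraries.

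When proteins begin to unfold in the heat, heat shock factors switch on genes for chaperones. Small heat shock proteins hold unfolding proteins in a soluble state without using ATP, and DnaJ co-chaperones hand them to HSP70 for refolding. In algae, stress also calls on stress-related antenna proteins that release excess light energy as heat and on acyltransferases that build triacylglycerol, the storage oil.

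Library totals ranged from 10872030 to 35917831 reads, with a median of 22088535.5. The 3 libraries of each group differed beyond counting noise (chi-square per degree of freedom of 9.33 to 173). Single pairs were not checked. Levels are given as TPM (reads scaled by gene length and to a fixed library sum, from the deposited table). Fold changes come from a fit to the deposited read counts with edgeR's quasi-likelihood test, on its own normalization, with an approximate SE. A gene was called when its Benjamini-Hochberg adjusted p over all 15541 genes was under 0.05, its log2 fold change was over 1 in size and its group means differed by 1 TPM or more. A difference between the treatments was called at an adjusted p under 0.05 and a difference of log2 changes over 1 in size, with no TPM criterion, so those calls include genes at very low levels. The TPM scale and the fit are not the same: the median over genes of log2 TPM ratio minus log2 fold change was 1.02 for 40°C recovery 2 h, 0.5 for 40°C recovery 8 h and 0.62 for 35°C recovery 2 h. It was -0.42 for 40°C heat 0 h and -0.32 for 35°C heat 0.5 h. Rises and falls below are those of the fit, relative to the bulk of genes. Reads that matched more than one locus had been dropped, so levels of near-identical neighbours such as HSP22A and HSP22B, or LHCSR3.1 and LHCSR3.2, are uncertain, and strand-specific counting is not stated, so overlapping antisense transcripts cannot be told apart.

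The median of the 326 genes was already above its pre-heat level on reaching 40°C and came back towards it in recovery. The rule used that pre-heat level, so a value low by chance there would raise d at every 40°C sampling. The median d at 40°C was 1.63 on reaching the temperature, 3.36 after 0.5 h and 3.18 after 1 h of heat. It was 3.03 by 2 h, 2.77 by both 4 and 8 h, 2.83 by 16 h and 3.07 by 24 h. On regaining 25°C it was 2.33, then 1.25 after 2 h and 1.05 after 4 h of recovery. It was 1.07 by 8 h, 0.62 by 24 h and 0.33 by 48 h. The 35°C cultures entered the read filter and the scaling but not the d threshold. In them the median was 1.33 at heat 0 h, 1.34 after 0.5 h and 1.31 after 1 h. It was 1.12 by 2 h, 1.04 by 4 h, 1.1 by 8 h, 1.03 by 16 h and 0.96 by 24 h. It was 0.27 at 35°C recovery 0 h and lay between -0.23 and 0.18 at the later recovery samplings. Over all genes tested the median d stayed between -0.04 and 0.06 at all samplings. In bulk cultures such as these, fewer cells that hold an RNA and less of it per cell cannot be told apart.

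**Figure D1:**
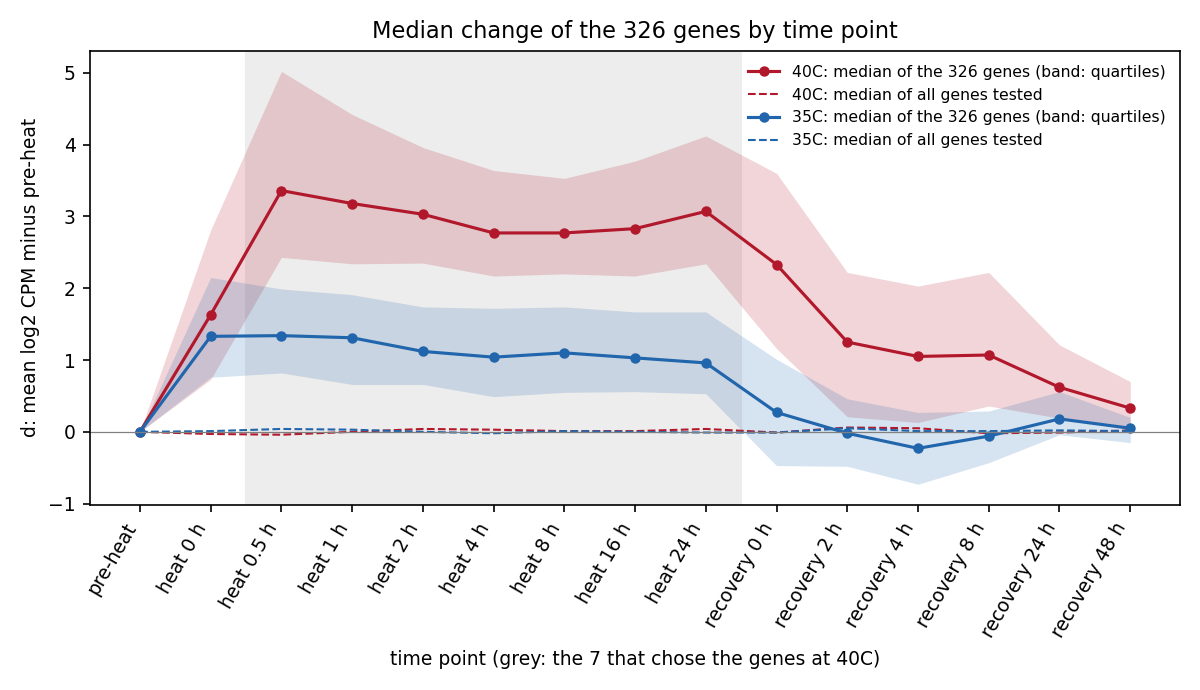
Median d (log2 CPM minus the pre-heat mean of the same treatment) of the 326 genes at each sampling, 40°C above 35°C, with the range between the lower and upper quartile of the genes shaded and the median of all genes tested as a dashed line. The 40°C median peaks at 3.36 at heat 0.5 h, stays at 2.77 or more through heat and is 0.33 after 48 h of recovery, while the 35°C median does not exceed 1.34.

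Within the rule, the genes differed in timing. The highest d fell at 0.5 h for 136 genes and at 24 h for 77, with 113 in between, and the lowest fell at 4 h for 70 and at 0.5 h for 60. At 24 h, d was at least 1 below its 0.5 h value for 109 genes, at least 1 above it for 60 and within 1 of it for 157. On reaching 40°C, before the first heat sampling the rule used, 178 genes already had a d of 1.5 or more. There 22 were below their pre-heat level, which the rule did use. The lowest of the 7 values was 3 or more for 65 genes, 2 or more for 183 and under 1.6 for 46. Those just inside the threshold were Cre06.g298200 (1.5, at 16 h), Cre07.g333450 (1.503, at 4 h), LCL1 (1.504, at 8 h) and Cre02.g111250 (1.507, at 0.5 h), and those just outside it were Cre04.g218350 (1.499), Cre05.g230650 (1.498), Cre13.g583450 (1.497) and Cre16.g658200 (1.495).

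**Figure D2:**
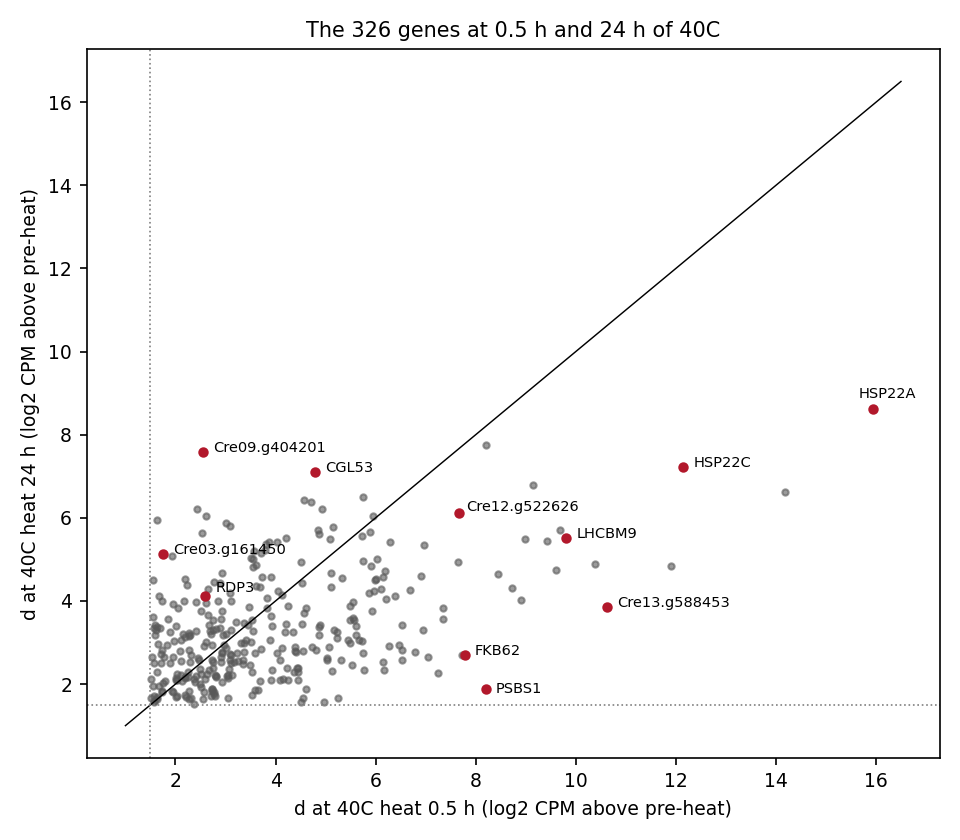
Each point is one of the 326 genes, with d at 40°C heat 0.5 h on the horizontal axis and d at 40°C heat 24 h on the vertical axis, both in log2 units. For 109 genes the later value is at least 1 lower and for 60 it is at least 1 higher; HSP22A lies farthest to the right.

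Before heat, most of these genes were barely expressed. Their median level was 0.27 TPM in the 40°C cultures and 0.305 TPM in the 35°C cultures, against 2.61 and 2.7 TPM over all genes. Averaged over 0.5 to 24 h at 40°C, it was 3.34 TPM, against 2.82 TPM over all genes. Before heat 30 of the 326 genes averaged 5 TPM or more, and 11 had no read in any of the 3 libraries; at 40°C, 138 genes averaged 5 TPM or more at heat 0.5 h and 136 at heat 24 h. Together the genes took 0.0651% of all TPM before heat, 0.798% at heat 0 h and 4.27% at heat 0.5 h (libraries 4.96, 4.5 and 3.36%). They took 0.404% by 4 h, 0.686% by 24 h and 0.0834% after 48 h of recovery. Without HSP22A the share at heat 0.5 h was 1.22%.

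Chaperone and protein-folding genes gave the 3 highest peaks, those of HSP22A, HSP22B and FKB62. Of the 9 small heat shock protein genes tested, 4 met the rule, and 8 reached a d of 1.5 at one or more of the 7 samplings. None of the 11 larger heat shock protein genes (such as the HSP70 and HSP90 families) and none of the 17 listed chaperonins met the rule. Of these, 8 and 9 reached 1.5 at least once. Of the 15 listed DnaJ genes tested, 2 met the rule. The chaperonin and DnaJ lists held only genes with a matching symbol, so these families may hold further genes that met it. HSP22A (Cre07.g318800) reached the highest level of all. It had 1.01, 0.485 and 0.41 TPM before heat. In heat the libraries had 2193, 3152 and 5321 TPM at 40°C heat 0 h, 33990, 32450 and 25310 TPM at 0.5 h, 128, 63.9 and 81.1 TPM at 4 h and 286, 449 and 221 TPM at 24 h. All 3 libraries peaked together at 0.5 h, and at 4 h all were far below that peak and far above pre-heat. In the independent 35°C cultures it had 515, 353 and 574 TPM at heat 0.5 h, against 0.385, 0.366 and 0.441 TPM before heat (log2 fold change 10.53 ± 0.93, edgeR adjusted p = 2.3e-14). It was still up at 35°C heat 24 h, with 34.9, 30.3 and 19.1 TPM (log2 fold change 6.22 ± 0.85, edgeR adjusted p = 1.07e-07). In both 35°C comparisons every heated library lay above every pre-heat library.

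HSP22A did not settle evenly after 40°C. It had 24, 211 and 29.7 TPM at 40°C recovery 2 h, 4.97, 10.6 and 15.5 TPM at 8 h, 39.8, 41 and 48.2 TPM at 24 h and 4.5, 4.72 and 7.43 TPM at 48 h. All 3 libraries were lower at 8 h than at 24 h. Library B alone was high at 2 h; without it the log2 fold change against recovery 48 h was 1.25 in place of 2.96 and was not called. At 24 h all 3 libraries lay above all 3 at 48 h (log2 fold change 2.81 ± 0.64, edgeR adjusted p = 0.00921), a call that was lost without library A or B of recovery 48 h, at 2.64 and 2.68 on the log2 scale. Its neighbour HSP22B (Cre07.g318850) had 2896, 1410 and 726 TPM at 40°C heat 0.5 h and 20.1, 25.7 and 3.51 TPM at 24 h, and at 35°C it rose to 22.2, 20 and 24.5 TPM at 0.5 h, against 0.0842, 0 and 0.0964 TPM before heat (log2 fold change 8.70 ± 1.14, edgeR adjusted p = 5.22e-09).

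HSP22C (Cre03.g145787), another small heat shock protein, responded more at 40°C than at 35°C. It had 0.186, 0.264 and 0.117 TPM before heat. Its later libraries had 956, 783 and 462 TPM at 40°C heat 0.5 h, 11.5, 6.68 and 8.68 TPM at 4 h and 58.3, 53.4 and 47.4 TPM at recovery 2 h. In the 35°C cultures at heat 0.5 h it had 3.2, 3.1 and 4.82 TPM, against 0.158, 0.15 and 0.18 TPM before heat (log2 fold change 4.81 ± 0.73, edgeR adjusted p = 1.83e-07), and the groups did not overlap. Set against recovery 48 h, its change at recovery 2 h was higher after 40°C than after 35°C (difference of log2 changes 4.62 ± 1.07, edgeR adjusted p = 0.000429). So was its change at heat 0 h (difference of log2 changes 4.30 ± 1.00, edgeR adjusted p = 0.00303), a call that was lost without 35°C recovery 48 h replicate C, at 3.91. At 40°C recovery 24 h it stood at 3.32, 4.34 and 4.93 TPM, against 0.679, 0.83 and 0.966 TPM at 48 h (log2 fold change 2.21 ± 0.58, edgeR adjusted p = 0.0404); the groups did not overlap, but leaving out any 1 of these 6 libraries ended that call, with log2 fold changes of 2.06 to 2.39. HSP22H (Cre07.g318600) was silent or nearly so before heat (0.0262, 0 and 0 TPM), had 61.3, 32.1 and 17.5 TPM at 40°C heat 0.5 h and was not called at 35°C heat 0.5 h, at 0.156, 0.111 and 0.0966 TPM.

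The 2 listed DnaJ genes that met the rule differed in timing. DNJ7 (Cre01.g019950), a DnaJ protein, had 0.265, 0.301 and 0.236 TPM before heat. The libraries then had 82.4, 109 and 156 TPM at 40°C heat 0 h, 163, 105 and 49.1 TPM at 0.5 h and 2.24, 1.38 and 1.52 TPM at 4 h. Its level on reaching 40°C exceeded that at 40°C recovery 48 h, 0.273, 0.248 and 0.251 TPM (log2 fold change 9.28 ± 0.68, edgeR adjusted p = 4.34e-18), and the change was larger than the one at 35°C (difference of log2 changes 3.54 ± 0.82, edgeR adjusted p = 0.00282). DNJ31 (Cre03.g204577), the other of the 2, had 0.659, 1.67 and 0.973 TPM at 0.5 h and 9.62, 5.94 and 7.07 TPM at 4 h. Its 3 libraries at 4 h thus all lay above those at 0.5 h. Cre03.g152750, annotated as BAG6, a co-chaperone of the BAG family, had the largest fitted rise of the 326 on reaching 40°C: 192, 259 and 333 TPM at heat 0 h, against 0.0693, 0.108 and 0.0491 TPM at recovery 48 h (log2 fold change 12.20 ± 1.02, edgeR adjusted p = 7.89e-16).

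FKB62 (Cre09.g398067), a peptidyl-prolyl isomerase of the FKBP family, which helps proteins fold around proline, followed the small heat shock proteins from a higher base. It had 8, 7.13 and 7.68 TPM before heat. Later its level was 180.5, 283 and 456 TPM at 40°C heat 0 h, 1120, 1363 and 1003 TPM at 0.5 h, 31.9, 20.3 and 23.2 TPM at 4 h and 68.8, 82.8 and 29.4 TPM at 24 h. At 35°C it rose to 44, 65.7 and 67.5 TPM at 0.5 h, against 6.7, 7.66 and 8.12 TPM before heat (log2 fold change 3.31 ± 0.50, edgeR adjusted p = 2.07e-07), without overlap. At 40°C recovery 2 h it fell below its late level, with 2.59, 3.78 and 3.85 TPM against 6.05, 7.28 and 6.74 TPM at recovery 48 h (log2 fold change -1.98 ± 0.49, edgeR adjusted p = 0.000299), and again the groups were apart. On regaining 25°C (recovery 0 h) it had 8.09, 54 and 4.85 TPM; there replicate B stood far above the others, and without it the log2 fold change against recovery 48 h was -0.01 in place of 1.88. CLPS2 (Cre12.g559150), an adaptor of the Clp protease, rose at 35°C heat 0.5 h to 10.2, 16.9 and 9.67 TPM, against 4.16, 2.89 and 1.98 TPM before heat (log2 fold change 2.35 ± 0.36, edgeR adjusted p = 2.84e-07), and had 148, 125 and 72.9 TPM at 40°C heat 0.5 h.

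**Figure D3:**
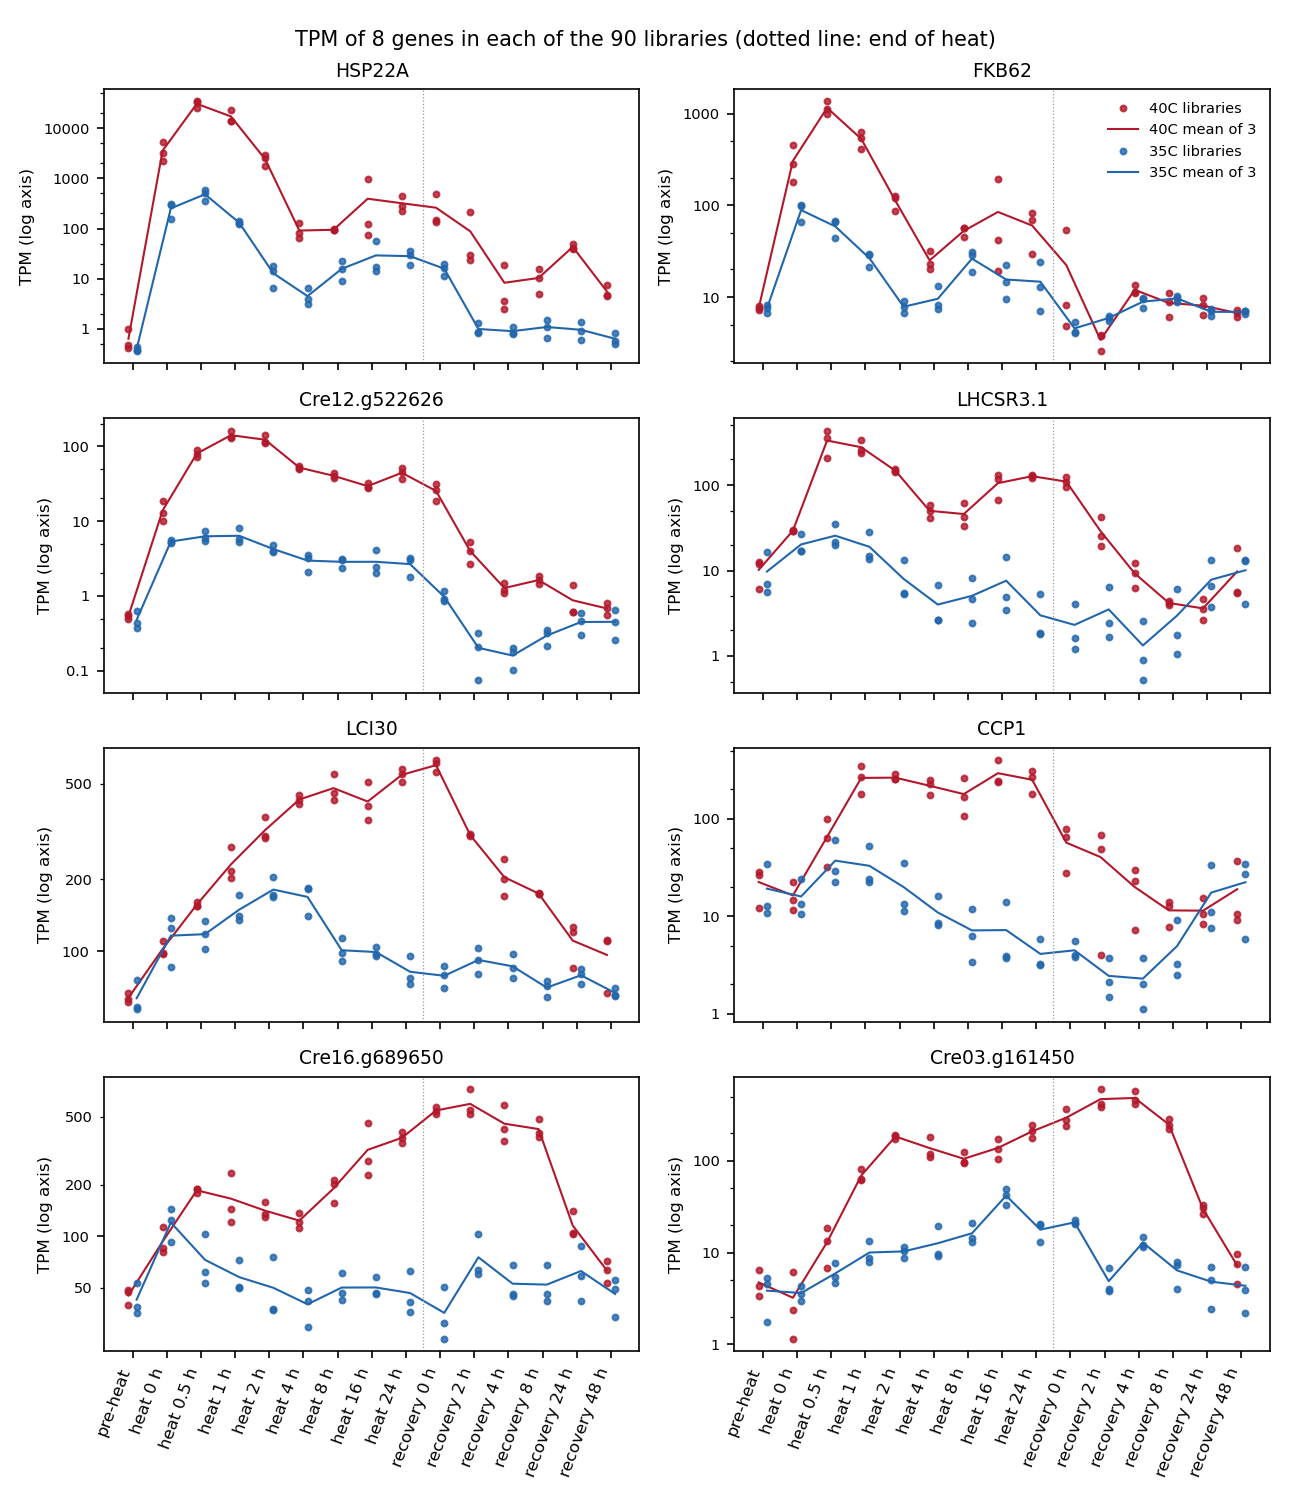
TPM on a log axis of HSP22A, FKB62, Cre12.g522626, LHCSR3.1, LCI30, CCP1, Cre16.g689650 and Cre03.g161450 at each of the 15 samplings, 40°C above 35°C in the legend, with 1 point per library and lines through the means. HSP22A, FKB62 and LHCSR3.1 peak at 40°C heat 0.5 h, and LCI30 and CCP1 are higher at heat 4 h and 24 h than at 0.5 h. In TPM, Cre16.g689650 and Cre03.g161450 are higher at recovery 2 h than at any heat sampling. The TPM scale lay above the fit by a median of 1.02 at 40°C recovery 2 h (against recovery 48 h). At 40°C heat 24 h (against pre-heat) it lay above by 0.15, so part of that step can come from the scale.

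Of the 11 stress antenna genes tested, 3 met the rule, and 4 of the 83 genes of the photosynthetic light reactions did, these 3 included. LHCSR3.1 (Cre08.g367500) and LHCSR3.2 (Cre08.g367400) encode the stress-related light-harvesting protein that dissipates excess light. LHCSR3.1 had 12, 6.09 and 12.5 TPM before heat. Under heat it had 29.8, 28.8 and 29 TPM at 40°C heat 0 h, 432, 356 and 208 TPM at 0.5 h, 57.9, 41.6 and 50.3 TPM at 4 h and 122, 128 and 131 TPM at 24 h. The 35°C cultures moved both ways. At heat 0.5 h LHCSR3.1 had 34.9, 20 and 21.8 TPM, against 16.6, 7.02 and 5.54 TPM before heat (log2 fold change 1.70 ± 0.55, edgeR adjusted p = 0.0102), a call lost without pre-heat replicate B or C, at 1.51 and 1.4. At heat 24 h it fell to 5.3, 1.87 and 1.8 TPM (log2 fold change -1.6 ± 0.57, edgeR adjusted p = 0.0335), a call lost without pre-heat replicate A, at -0.95, or without heat 24 h replicate B or C, at -1.35 and -1.31. Pre-heat replicate A was the highest of the 3 pre-heat libraries. The groups did not overlap, although heat 24 h replicate A lay just under pre-heat replicate C.

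After 40°C, LHCSR3.1 fell below its late level. At recovery 8 h it had 4.2, 4.42 and 3.9 TPM, against 18.3, 5.4 and 5.53 TPM at recovery 48 h (log2 fold change -1.69 ± 0.57, edgeR adjusted p = 0.015), and without recovery 48 h replicate A, which was the high one, the value was -0.91 and was not called. LHCSR3.2 had 549, 322 and 158 TPM at 40°C heat 0.5 h and 121, 91.3 and 109.9 TPM at 24 h. For both genes the change at recovery 2 h against recovery 48 h was higher after 40°C than after 35°C (LHCSR3.2: difference of log2 changes 3.42 ± 0.95, edgeR adjusted p = 0.00344; LHCSR3.1: difference of log2 changes 2.84 ± 0.79, edgeR adjusted p = 0.00348).

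PSBS1 (Cre01.g016600), a photosystem II subunit that also takes part in energy dissipation, was nearly absent before heat (0, 0 and 0.0136 TPM) and differed widely between libraries at its peak, with 51.2, 6.91 and 1.26 TPM at 40°C heat 0.5 h. At 4 h it had 0.132, 0.156 and 0.218 TPM and at recovery 2 h 1.34, 1.42 and 0.929 TPM, against 0.0969, 0.0671 and 0.152 TPM at recovery 48 h (log2 fold change 2.51 ± 0.94, edgeR adjusted p = 0.016), a call lost without recovery 48 h replicate A or B, at 2.43 and 2.25. It was not called at 35°C heat 0.5 h, with 0.0498, 0.0177 and 0.0462 TPM. LHCBM9 (Cre06.g284200), a light-harvesting protein of photosystem II, had 0.244, 0.248 and 0.189 TPM before heat. Its level was then 270.5, 146 and 92.1 TPM at 40°C heat 0.5 h, 0.964, 0.668 and 0.861 TPM at 4 h and 5.8, 23.4 and 14.7 TPM at 24 h. It showed no call at 35°C heat 0.5 h, at 0.494, 0.466 and 0.321 TPM, against 0.277, 0.421 and 0.393 TPM before heat. At 40°C recovery 2 h it was up, with 18.1, 21.3 and 15.2 TPM against 0.764, 0.327 and 0.357 TPM at recovery 48 h (log2 fold change 4.20 ± 0.59, edgeR adjusted p = 6.67e-09), and that change exceeded the one after 35°C (difference of log2 changes 5.44 ± 1.00, edgeR adjusted p = 1.17e-05).

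Over the light reaction list the calls went the other way in recovery: at 40°C recovery 2 h, 5 of the 83 genes were up and 60 down, with a median log2 fold change of -2.32, and at 35°C heat 0.5 h, 9 were up and none down, with a median of 0.53. The stress antenna genes had 4 of 11 up and 3 down at 40°C recovery 2 h (median 0.29), and 4 up and 1 down at 35°C heat 0.5 h (median 0.76). Over all genes 16.7% were up and 11.3% down at 40°C recovery 2 h, and 3.22% up and 5.75% down at 35°C heat 0.5 h. Beside these and the other list medians given here, the median over all genes was 0.04 for 35°C heat 0.5 h and -0.01 for 35°C heat 24 h. For 40°C it was -0.06 on reaching the temperature, 0 on regaining 25°C and 0.06 after 2 h of recovery.

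Of 64 nitrogen genes tested, 5 met the rule. AMX2 (Cre01.g000650), annotated as a copper amine oxidase, which frees ammonium from amines, had 0.294, 0.125 and 0.18 TPM before heat. Later values were 105, 81.7 and 40.2 TPM at 40°C heat 0.5 h, 3.5, 2.76 and 2.86 TPM at 4 h, 12.9, 14.6 and 5.56 TPM at 24 h and 25.4, 22.5 and 25.5 TPM at recovery 2 h. It was up at 40°C recovery 2 h, against 0.745, 0.8 and 0.201 TPM at recovery 48 h (log2 fold change 4.38 ± 0.49, edgeR adjusted p = 5.2e-12), and at 35°C recovery 2 h, with 1.81, 1.56 and 2.1 TPM against 0.218, 0.142 and 0.157 TPM before heat (log2 fold change 2.77 ± 0.53, edgeR adjusted p = 2.67e-05); both pairs of groups were apart. The ammonium transporter gene AMT5 (Cre09.g400750) and the purine and uracil permease UAPA2 (Cre10.g442600) were low: AMT5 had 0.449, 0.548 and 0.435 TPM and UAPA2 0.23, 0.597 and 0.803 TPM at 40°C heat 24 h. A second ammonium transporter, Cre03.g159254, had no read in the 3 pre-heat libraries of 35°C and 8.33, 2.63 and 4.56 TPM at 40°C heat 24 h. Cre14.g624800, the fifth gene, had 1.18, 0.841 and 1.21 TPM there. In the list as a whole, 19 of 64 genes were called up and 1 down at 40°C recovery 0 h, with a median log2 fold change of 0.8, and 5 up and 2 down at 35°C heat 0.5 h, with a median of 0.27. Over all genes 16.1% were up and 12.1% down at 40°C recovery 0 h, and 3.22% and 5.75% at 35°C heat 0.5 h.

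NIT3 (Cre06.g303050), annotated with molybdenum cofactor synthesis, on which nitrate reductase depends, was outside that list. It had 0.207, 0.441 and 0.41 TPM before heat. In heat the libraries had 9.1, 8.21 and 5.25 TPM at 40°C heat 0.5 h and 2.06, 4.07 and 3.15 TPM at 24 h. For the 35°C cultures, at heat 0.5 h it rose to 1.59, 1.34 and 1.55 TPM, against 0.197, 0.222 and 0.326 TPM before heat (log2 fold change 2.90 ± 0.36, edgeR adjusted p = 1.73e-09), without overlap.

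Of the 22 inorganic carbon genes tested, 2 met the rule, and both were already among the higher of the 326 before heat and highest late in heat. LCI30 (Cre12.g507300), a gene induced by low CO2, had 67.3, 61.5 and 63.6 TPM before heat. Its later libraries had 161, 154 and 155 TPM at 40°C heat 0.5 h, 446, 413 and 428 TPM at 4 h and 508, 549 and 574 TPM at 24 h. Its 3 libraries at 24 h lay above those at 4 h, and those at 4 h above those at 0.5 h. At 35°C heat 0.5 h it had 134, 118 and 102 TPM, against 75.7, 58.4 and 57.4 TPM before heat (log2 fold change 1.21 ± 0.16, edgeR adjusted p = 1.27e-08), and at 35°C heat 24 h 96, 77.8 and 73.2 TPM (log2 fold change 0.46 ± 0.16, edgeR adjusted p = 0.0307), which did not pass the fold threshold.

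CCP1 (Cre04.g223300), a carrier that is also induced by low CO2, parted between the treatments. At 40°C it had 28.5, 12.3 and 26.5 TPM before heat. The libraries then had 22.7, 14.7 and 11.7 TPM at heat 0 h, 32.1, 100.3 and 63.4 TPM at 0.5 h, 249, 176 and 229 TPM at 4 h and 307, 177 and 269 TPM at 24 h. In the 35°C cultures at heat 24 h it fell to 5.9, 3.17 and 3.28 TPM, against 34.2, 12.8 and 10.7 TPM before heat (log2 fold change -2.13 ± 0.65, edgeR adjusted p = 0.0126), a call lost without pre-heat replicate A (-1.4) or heat 24 h replicate B (-1.96) or C (-1.97). At 35°C recovery 2 h it fell to 3.73, 1.49 and 2.13 TPM (log2 fold change -3.61 ± 0.71, edgeR adjusted p = 3.86e-05), and all 3 libraries lay below all pre-heat ones. Measured against recovery 48 h, the change at recovery 2 h was higher after 40°C than after 35°C (difference of log2 changes 4.02 ± 0.93, edgeR adjusted p = 0.000409), with 48.8, 4.03 and 68.7 TPM at 40°C recovery 2 h, where replicate B was the low one. CCP1 and LHCSR3.1 were the 2 genes among the 326 called down at 35°C heat 24 h, where 2.97% of all genes were.

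Over the inorganic carbon list, 10 of 22 genes were up and none down at 35°C heat 0.5 h, with a median log2 fold change of 1.17, and 2 were up and 4 down at 35°C heat 24 h, with a median of -0.21. At 40°C recovery 2 h, 1 was up and 11 were down, with a median of -1.29. The shares of all genes up and down were 3.22% and 5.75%, 1.57% and 2.97%, and 16.7% and 11.3% in these 3 comparisons. Cre09.g404201, placed in the carbon concentrating mechanism by MapMan, a functional classification of plant genes, was not in that list and was late: 13.6, 0.886 and 1.44 TPM at 40°C heat 0.5 h, 6.21, 2.85 and 3.12 TPM at 4 h, 188, 110.4 and 125 TPM at 24 h and 495, 189 and 249 TPM at recovery 2 h, against 8.26, 3.67 and 3.07 TPM at recovery 48 h (log2 fold change 4.93 ± 0.90, edgeR adjusted p = 2.51e-06). Replicate A was the highest at each of these times.

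DGTT1 (Cre12.g557750) and DGAT1 (Cre01.g045903), which both met the rule and make up a list of only 2 genes drawn from symbols with earlier results known, encode diacylglycerol acyltransferases, which add the last fatty acid of triacylglycerol. DGTT1 had 0.157, 0.181 and 0.276 TPM before heat. Later its level was 6.25, 5.76 and 4.17 TPM at 40°C heat 0.5 h, 1.69, 1.49 and 1.97 TPM at 4 h, 6.57, 7.26 and 5.4 TPM at 24 h and 2.54, 2.98 and 2.93 TPM at recovery 8 h. The level dipped at 4 h in all 3 libraries and was up again at 24 h. At 40°C recovery 8 h it stood above recovery 48 h, which had 0.366, 0.406 and 0.313 TPM (log2 fold change 2.46 ± 0.37, edgeR adjusted p = 1.76e-07), and its change at recovery 2 h was higher after 40°C than after 35°C (difference of log2 changes 3.79 ± 0.64, edgeR adjusted p = 2.14e-06). For the 35°C cultures, at heat 0.5 h it had 0.672, 0.455 and 0.373 TPM, against 0.261, 0.284 and 0.242 TPM before heat (log2 fold change 1.26 ± 0.41, edgeR adjusted p = 0.0107), a difference in TPM too small to be called. DGAT1 had 4.07, 3.91 and 2.58 TPM at 40°C heat 0.5 h, 3.7, 3.12 and 3.83 TPM at 24 h and 3.75, 3.66 and 3.47 TPM at recovery 2 h, the last not called against recovery 48 h (log2 fold change 0.47 ± 0.21, edgeR adjusted p = 0.0407).

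LCL1 (Cre06.g299800), a long-chain acyl-CoA ligase, which activates fatty acids, had 3.07, 3.32 and 3.55 TPM before heat. Under heat it had 12.3, 12.6 and 12.4 TPM at 40°C heat 0 h, 19, 18.1 and 15.2 TPM at 0.5 h and 15.1, 17.3 and 13.9 TPM at 24 h. At 35°C heat 0.5 h it rose to 8.52, 8.75 and 8.58 TPM, against 3.32, 3.81 and 3.52 TPM before heat (log2 fold change 1.6 ± 0.18, edgeR adjusted p = 1.08e-10), with no overlap. SQD3 (Cre16.g689150), annotated as a synthase of sulfolipid, a lipid of the thylakoid membrane, had 1.52, 2.1 and 2.94 TPM on reaching 40°C, against 0.0821, 0.117 and 0.0484 TPM at recovery 48 h (log2 fold change 5.17 ± 0.51, edgeR adjusted p = 2.9e-13), and 9.11, 6.03 and 2.82 TPM at 0.5 h, where A lay above B and B above C.

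Of 54 starch genes tested, 2 met the rule. Cre03.g183300, which carries a carbohydrate-binding fold, was up at both temperatures and down after them. It had 12.6, 12.5 and 10.9 TPM before heat. Its level was then 60.4, 76.6 and 65.8 TPM at 40°C heat 0.5 h, 64.5, 61 and 57.3 TPM at 24 h and 0.929, 1.56 and 1.56 TPM at recovery 2 h. In the 35°C cultures at heat 24 h it stood at 43.7, 50.4 and 48.8 TPM, against 16.6, 14.9 and 15.8 TPM before heat (log2 fold change 1.68 ± 0.24, edgeR adjusted p = 1.54e-07). After the return to 25°C it fell at 40°C recovery 2 h, against 19.3, 16 and 9.84 TPM at recovery 48 h (log2 fold change -4.45 ± 0.28, edgeR adjusted p = 1.93e-22), and at 35°C recovery 2 h, to 2.82, 4.05 and 4.42 TPM (log2 fold change -2.67 ± 0.25, edgeR adjusted p = 1.44e-13); the fall after 40°C was the larger (difference of log2 changes -2.07 ± 0.36, edgeR adjusted p = 4.08e-06). Cre08.g363874, with a phosphoenolpyruvate and pyruvate binding domain, went the other way and was up at 40°C recovery 2 h, with 6.23, 5.47 and 4.1 TPM against 1, 0.634 and 0.44 TPM at recovery 48 h (log2 fold change 1.90 ± 0.25, edgeR adjusted p = 6.66e-10). Over the list, 15 of 54 genes were up and 16 down at 40°C recovery 2 h (median log2 fold change -0.11), against 16.7% up and 11.3% down over all genes.

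Other pathways gave 1 or 2 genes each. The cell cycle list, of which 122 genes were tested, gave RDP3 (Cre07.g352550), a rhodanese-domain phosphatase, which had 10.2, 8.09 and 9.23 TPM before heat. Later values were 42.5, 38.3 and 34.7 TPM at heat 0.5 h, 143, 202 and 193 TPM at 24 h, 292, 221 and 214 TPM at recovery 2 h and 93.7, 103 and 105 TPM at 8 h. It was up at 40°C recovery 2 h, against 14.3, 7.72 and 10.1 TPM at recovery 48 h (log2 fold change 3.47 ± 0.37, edgeR adjusted p = 9.49e-13), and more so than after 35°C (difference of log2 changes 3.51 ± 0.51, edgeR adjusted p = 6.17e-08), where it had 21.1, 9.33 and 9.04 TPM. Over the whole list the calls at 35°C heat 0.5 h were mostly falls, 81 of 122 with 1 rise (median log2 fold change -1.8), and at 40°C recovery 2 h mostly rises, 107 with 1 fall (median 1.56). Over all genes 3.22% rose and 5.75% fell at 35°C heat 0.5 h, and 16.7% rose and 11.3% fell at 40°C recovery 2 h.

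Autophagy, the breakdown of cell contents in the vacuole, was represented by ATG18 (Cre10.g457550), 1 of 3 autophagy genes tested, and by Cre16.g689650, which MapMan places in autophagy. ATG18 had 1.27, 1.26 and 1.28 TPM before heat. In heat the libraries had 5.4, 5.51 and 5.03 TPM at 40°C heat 0.5 h and 5.93, 4.06 and 5.17 TPM at 24 h. It was up on reaching 40°C, at 3.25, 2.87 and 2.84 TPM against 2.11, 1.27 and 1.22 TPM at recovery 48 h (log2 fold change 1.39 ± 0.24, edgeR adjusted p = 2.41e-06). Cre16.g689650 was high through heat and for hours after it, with 48.9, 39.6 and 47.2 TPM before heat. Its later libraries had 190.3, 188 and 179 TPM at 40°C heat 0.5 h, 351, 374 and 405 TPM at 24 h, 723, 517 and 545 TPM at recovery 2 h and 484, 405 and 383 TPM at 8 h. The TPM scale lay above the fit by a median of 1.02 at 40°C recovery 2 h, and a rise from heat 24 h was not tested. Against recovery 48 h, with 72, 64 and 53.8 TPM, the rise at recovery 8 h was called (log2 fold change 2.27 ± 0.28, edgeR adjusted p = 1.05e-09), and at recovery 2 h it exceeded that after 35°C (difference of log2 changes 2.20 ± 0.39, edgeR adjusted p = 4.62e-06).

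Among 126 genes for scavenging of reactive oxygen species, only the glutathione S-transferase Cre05.g247550 met the rule, with 2.35, 2.98 and 2.27 TPM before heat, 13.4, 13.2 and 8.79 TPM at 40°C heat 0.5 h and 12.9, 10.9 and 7.87 TPM at 24 h. CPL12 (Cre10.g466500), of the glyoxalase family, whose enzymes detoxify reactive carbonyls, was among the 3 highest of the 326 before heat. It had 45.6, 42.2 and 51 TPM before heat. The libraries then had 131, 198 and 219 TPM at 40°C heat 0.5 h and 294, 245 and 254 TPM at 24 h, and at 35°C heat 24 h it was up, with 102, 124 and 102 TPM against 57.9, 47.2 and 39.5 TPM before heat (log2 fold change 1.27 ± 0.16, edgeR adjusted p = 8.8e-09). The 35°C groups did not overlap. CDO2 (Cre03.g163950), a cysteine dioxygenase, had 28.1, 21.8 and 10.3 TPM at 40°C heat 0.5 h and 4.11, 3.74 and 3.98 TPM at 4 h, against 0.293, 0.0678 and 0.124 TPM before heat, and was not called at 35°C heat 0.5 h, at 0.398, 0.148 and 0.304 TPM.

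Pherophorins are glycoproteins of the algal cell wall, and 2 of the 18 tested met the rule. PHC8 (Cre17.g717850) had 12.5, 14.6 and 18.8 TPM before heat. Later its level was 272, 339 and 314 TPM at 40°C heat 0.5 h, 75.5, 63.4 and 69.6 TPM at 4 h and 150.1, 212 and 176 TPM at 24 h. At 35°C it rose to 61.7, 64.1 and 70.6 TPM at heat 0.5 h, against 14.8, 17.6 and 19.9 TPM before heat (log2 fold change 2.24 ± 0.26, edgeR adjusted p = 3.14e-10), without overlap. PHC48 (Cre06.g290676) was low and late, with 0.55, 0.618 and 0.734 TPM at 40°C heat 0.5 h and 3.65, 3.87 and 2.81 TPM at 24 h. Over the whole list 13 of 18 were down and 2 up at 40°C recovery 0 h (median log2 fold change -3.23), against 12.1% down and 16.1% up over all genes.

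Of the 9 CSB genes tested, a family derived from transposons, CSB12 (Cre02.g076663) and CSB24 (Cre04.g228250) met the rule. CSB12 stayed under 1 TPM in the libraries of 40°C heat 0.5 h (0.436, 0.828 and 0.539 TPM). CSB24 was the 1 gene of the 326 called down on reaching 40°C, where 6.16% of all genes were. It had 0.557, 0.384 and 0.713 TPM at heat 0 h, against 2.17, 1.57 and 1.69 TPM at recovery 48 h (log2 fold change -1.23 ± 0.33, edgeR adjusted p = 0.00162), and then 4.06, 4.06 and 3.9 TPM at 0.5 h and 11.5, 7.72 and 6.67 TPM at 24 h. The change at heat 0 h was lower than at 35°C (difference of log2 changes -1.68 ± 0.47, edgeR adjusted p = 0.0157), a call lost without 35°C recovery 48 h replicate B (-1.42) or 40°C heat 0 h replicate B (-1.47). No listed gene met the rule among 35 of carbon fixation, 45 of pigment biosynthesis, 45 of the cell wall and 62 of flagella. Nor did any of the 19 listed for ubiquitin and the proteasome, 12 cyclases, 8 cytochrome P450 genes, 7 iron genes and 2 ABC transporters. The lists from flagella on are incomplete, since they held only genes with a matching symbol. Of all genes tested 12.3% carried a symbol, so these families may hold further genes that met the rule.

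SRS9 (Cre14.g617100), a splicing factor of the SR family, was the second highest of the 326 before heat. It had 45.2, 52.3 and 42.8 TPM before heat. Under heat it had 495, 629.5 and 744 TPM at 40°C heat 0 h, 1166, 830.3 and 499.8 TPM at 0.5 h, 175, 141 and 136 TPM at 4 h and 272, 225 and 114 TPM at 24 h. For the 35°C cultures, at heat 0.5 h it rose to 277, 322 and 292 TPM, against 46.1, 49 and 41.7 TPM before heat (log2 fold change 3.03 ± 0.37, edgeR adjusted p = 8.86e-10), without overlap. At 40°C recovery 2 h its TPM, 47.7, 36.8 and 53.9, overlapped those of recovery 48 h, 71.5, 57.9 and 42.5, and the fit called a fall (log2 fold change -1.32 ± 0.35, edgeR adjusted p = 0.000804) that was -0.86 and not called with library size alone as the scale. Cre02.g109366, with a SET domain as found in histone methyltransferases, was near 0 before heat. It had 3.57, 5.93 and 4.11 TPM at 35°C heat 0.5 h, against 0.0384, 0.122 and 0.022 TPM before heat (log2 fold change 6.58 ± 0.60, edgeR adjusted p = 6.05e-14), and 9.2, 8.79 and 7.74 TPM at 40°C heat 0.5 h.

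CGL33A (Cre07.g313600), annotated as a methyltransferase, was at 0 before heat and again late in recovery. It had no read in any of the 3 libraries of 40°C pre-heat, 40°C recovery 24 h, 40°C recovery 48 h and 35°C pre-heat. It had 25.2, 45.3 and 60.3 TPM at 40°C heat 0 h, 140.4, 164 and 100.4 TPM at 0.5 h, 10.3, 8.72 and 8.82 TPM at 4 h and 17.9, 19.4 and 6.59 TPM at 24 h, and 4.44, 5.93 and 4.86 TPM at 35°C heat 0.5 h. Fitted fold changes against groups at 0 depend on the added prior count, and none is given; the call at 35°C heat 0.5 h had an edgeR adjusted p of 2.08e-07. On regaining 25°C it still had 1.12, 3.44 and 0.125 TPM and was called up against 40°C recovery 48 h (edgeR adjusted p = 0.00013), a call lost without recovery 0 h replicate B, the high one, and at 40°C recovery 2 h it had 0.209, 0.319 and 0.159 TPM and was not called.

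Some low genes had their highest level at 40°C heat 0.5 h. Cre03.g179650, an ankyrin repeat protein, had 56.5, 31.6 and 12.2 TPM at 40°C heat 0.5 h, against 0.0506, 0.0359 and 0.041 TPM before heat. HAP2 (Cre16.g674852), which fuses gametes, had 2.97, 2.24 and 0.889 TPM at 40°C heat 0.5 h, against 0.102, 0.0608 and 0.0771 TPM before heat. Others were late. CGL53 (Cre01.g048350), a glycosyl hydrolase, had 2.03, 0.707 and 0.445 TPM at 40°C heat 0.5 h, 11.3, 6.14 and 5.18 TPM at 24 h and 6.81, 2.58 and 2.17 TPM at recovery 8 h, against 0.24, 0.275 and 0.238 TPM at recovery 48 h (log2 fold change 3.51 ± 0.56, edgeR adjusted p = 6.83e-07). AAH1 (Cre01.g029250), an aromatic amino acid hydroxylase, had 12.6, 12.9 and 12.9 TPM at 40°C heat 24 h and 21.1, 23.2 and 21.8 TPM at recovery 2 h, against 0.658, 2.13 and 0.442 TPM at recovery 48 h (log2 fold change 3.34 ± 0.41, edgeR adjusted p = 1.05e-10), while at 35°C heat 0.5 h it had 0.622, 0.248 and 0.465 TPM and was not called.

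Of the 326 genes, 52 (16%) carried a symbol, against 12.3% of all genes tested, and 252 had an entry in the annotation tables. Several of the most changed genes are known by identifier alone. Cre12.g522626 had 0.575, 0.497 and 0.542 TPM before heat. Its level was then 87.8, 78.8 and 71.7 TPM at 40°C heat 0.5 h, 49.6, 51.6 and 53.8 TPM at 4 h and 50.3, 45.6 and 36.1 TPM at 24 h. At 35°C heat 0.5 h it rose to 5.9, 7.38 and 5.47 TPM, against 0.636, 0.431 and 0.373 TPM before heat (log2 fold change 4.01 ± 0.32, edgeR adjusted p = 6.67e-16), and at 35°C heat 24 h it had 3.02, 3.2 and 1.76 TPM (log2 fold change 2.54 ± 0.32, edgeR adjusted p = 1.4e-08), in both cases without overlap. Cre08.g380100 had 157, 89.8 and 54.8 TPM at 0.5 h, 45.1, 35.2 and 41 TPM at 4 h and 32.4, 28.9 and 24.7 TPM at 24 h of 40°C, where its 3 libraries at 24 h lay below those at 4 h. It had 1.39, 1.37 and 1.2 TPM at 35°C heat 0.5 h, against 0.155, 0.0652 and 0.059 TPM before heat (log2 fold change 4.05 ± 0.61, edgeR adjusted p = 1.88e-07).

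Some unnamed genes stayed high in TPM for hours of recovery, the time when the TPM scale lay above the fit. Cre03.g161450 had 4.37, 3.38 and 6.43 TPM before heat. Later values were 6.75, 18.6 and 13.5 TPM at 40°C heat 0.5 h, 176, 209.7 and 244 TPM at 24 h, 603, 422 and 389 TPM at recovery 2 h, 221, 283 and 245 TPM at 8 h and 33.2, 26.3 and 30.3 TPM at 24 h. All 3 libraries at recovery 24 h still lay above all 3 at recovery 48 h, 9.58, 7.57 and 4.52 TPM (log2 fold change 1.90 ± 0.31, edgeR adjusted p = 0.000162). Its change at recovery 2 h was higher after 40°C than after 35°C (difference of log2 changes 5.51 ± 0.56, edgeR adjusted p = 1.27e-12), where it had 6.79, 3.85 and 4 TPM at recovery 2 h. Cre12.g551700 reached 472, 463 and 406 TPM at 40°C heat 24 h and 1213, 782 and 613 TPM at recovery 2 h, against 21.3, 23.5 and 7.37 TPM at recovery 48 h (log2 fold change 4.61 ± 0.41, edgeR adjusted p = 1.18e-15), and was not called at 35°C heat 0.5 h, at 7.58, 3.19 and 4.82 TPM. Cre07.g328800 had 26.6, 27.7 and 24 TPM at 40°C heat 24 h and 114, 69.9 and 72.4 TPM at recovery 2 h, against 1.14, 0.866 and 0.544 TPM at recovery 48 h (log2 fold change 5.62 ± 0.51, edgeR adjusted p = 2.94e-15).

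Others fell below their late level on the return to 25°C. Cre16.g650425 had 49.8, 38.1 and 43.1 TPM at 40°C heat 4 h and 30.1, 17.1 and 20.5 TPM at 24 h, and at recovery 2 h it fell to 0.298, 0.227 and 0.323 TPM, against 10.3, 10.5 and 6.86 TPM at recovery 48 h (log2 fold change -6.03 ± 0.38, edgeR adjusted p = 9.62e-23). It fell at 35°C recovery 2 h as well, to 1.8, 2.48 and 2 TPM, against 9.81, 6.18 and 7.09 TPM before heat (log2 fold change -2.50 ± 0.30, edgeR adjusted p = 6.26e-10), and in both the groups were apart. Cre12.g485438 had 195, 328 and 240.5 TPM at 40°C heat 0.5 h and 2.16, 2.47 and 3.34 TPM at recovery 2 h, against 11.4, 7.74 and 10.1 TPM at recovery 48 h (log2 fold change -2.88 ± 0.34, edgeR adjusted p = 4.3e-11). Cre14.g608100 had 97.7, 72.7 and 50.6 TPM at 40°C heat 0.5 h and 0.57, 0.415 and 0.958 TPM at recovery 2 h, against 6.07, 4.46 and 4.74 TPM at recovery 48 h (log2 fold change -3.97 ± 0.47, edgeR adjusted p = 2.55e-11).

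Over the 7 samplings Cre13.g588453 was among the most variable of the genes, with 136, 41.7 and 14.3 TPM at 40°C heat 0.5 h and 0.374, 0.294 and 0.205 TPM at 4 h, and replicate A at 0.5 h was the high one. Cre06.g282300 was among the least variable of those with a usable level, with 7.2, 6.27 and 7.22 TPM before heat. In heat the libraries had 32.7, 36.6 and 41.3 TPM at 40°C heat 0 h, 27.5, 24 and 25.8 TPM at 4 h and 28.9, 22.7 and 23.6 TPM at 24 h. It also rose at 35°C heat 24 h, to 18.8, 18.9 and 18.2 TPM against 7.83, 7.44 and 6.17 TPM before heat (log2 fold change 1.47 ± 0.15, edgeR adjusted p = 1.57e-11), without overlap.

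Further genes without a symbol filled out the pattern. Cre12.g533150, among the highest before heat with 49, 35.2 and 47.6 TPM, had 308, 264 and 223 TPM at 40°C heat 0.5 h and 329, 219 and 159 TPM at 24 h. Cre16.g660470 was near 0 before heat (0.0551, 0.0587 and 0.0149 TPM) and had 25.8, 13.8 and 10.7 TPM at 40°C heat 0.5 h and 19.4, 21.9 and 15.1 TPM at 24 h. Cre06.g271900 was up at 35°C heat 24 h, with 15.5, 17.6 and 19.2 TPM against 2.35, 1.53 and 1.66 TPM before heat (log2 fold change 3.32 ± 0.35, edgeR adjusted p = 7.51e-11). Cre11.g467531 fell at 35°C recovery 2 h, to 1.51, 0.374 and 0.567 TPM against 7.08, 3.46 and 5.09 TPM before heat (log2 fold change -3.35 ± 0.44, edgeR adjusted p = 8.46e-09), and at 40°C recovery 8 h, to 1.07, 0.983 and 0.841 TPM against 4.01, 3.03 and 2.54 TPM at recovery 48 h (log2 fold change -2.20 ± 0.43, edgeR adjusted p = 2.89e-05). Cre14.g630376, at very low levels, had the largest fitted difference between the treatments at recovery 2 h, with 0.158, 0.0915 and 0.0673 TPM after 40°C and 0.00658, 0 and 0.00388 TPM after 35°C (difference of log2 changes 6.24 ± 1.5, edgeR adjusted p = 0.000719).

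The 35°C cultures asked whether the same genes respond to moderate heat. Of the 326 genes, 288 passed the read filter in the 35°C libraries alone. For the rest, a missing call at 35°C or in a difference between treatments can reflect too few reads. All 326 genes stay in the counts, with the 15 that passed the filter only through the 40°C heat libraries. No count without them is given. In the 35°C cultures at heat 0.5 h, 85 of the 326 genes were called up and none down, with a median log2 fold change of 1.49; over all genes 3.22% were called up and 5.75% down, with a median of 0.04. On reaching 35°C 100 genes were up (3.72% of all genes) and none down (4.16%). After 1 h 78 were up (2.91%) and none down (7.14%), and after 2 h 64 were up (2.52%) and none down (6.38%). After 4 h 54 were up (2.36%) and 1 down (6.18%), and after 8 h 64 were up (2.32%) and 1 down (4.34%). After 16 h 54 were up (1.92%) and none down (1.37%), and after 24 h 46 were up (1.57%) and 2 down (2.97%). None was down after 24 h without pre-heat replicate A, heat 24 h replicate B or heat 24 h replicate C. Without heat 24 h replicate A 4 were. The percent of all genes called with a library left out is not given, here and below. At heat 24 h the median log2 fold change was 1.06, against -0.01 over all genes. At 35°C, d was 1.5 or more at all 7 heat samplings from 0.5 h on for 46 of the genes and under 0 at all 7 for 4. At single samplings of these 7, 1.94% to 2.21% of all genes had a d of 1.5 or more. The shares of all genes at all 7 were not counted. The TPM criterion weighs on these counts. At 35°C pre-heat 242 of the 326 genes (74.2%) averaged under 1 TPM, against 27.7% of all genes, and such a gene could not be called down. Without the criterion 206 of the genes were up and none down after 0.5 h (5.6% and 9.9% of all genes), 174 up and none down after 2 h (5.41% and 11.1%), and 139 up and 2 down after 24 h (3.96% and 5.95%). With library size alone as the scale, 79 of the genes were up after 0.5 h and 54 after 2 h. The share of all calls that were up was then 20.9% in place of 35.9% after 0.5 h and 13.6% in place of 28.3% after 2 h. The percent of all genes called on that scale is not given, so these counts lack a background.

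**Figure D4:**
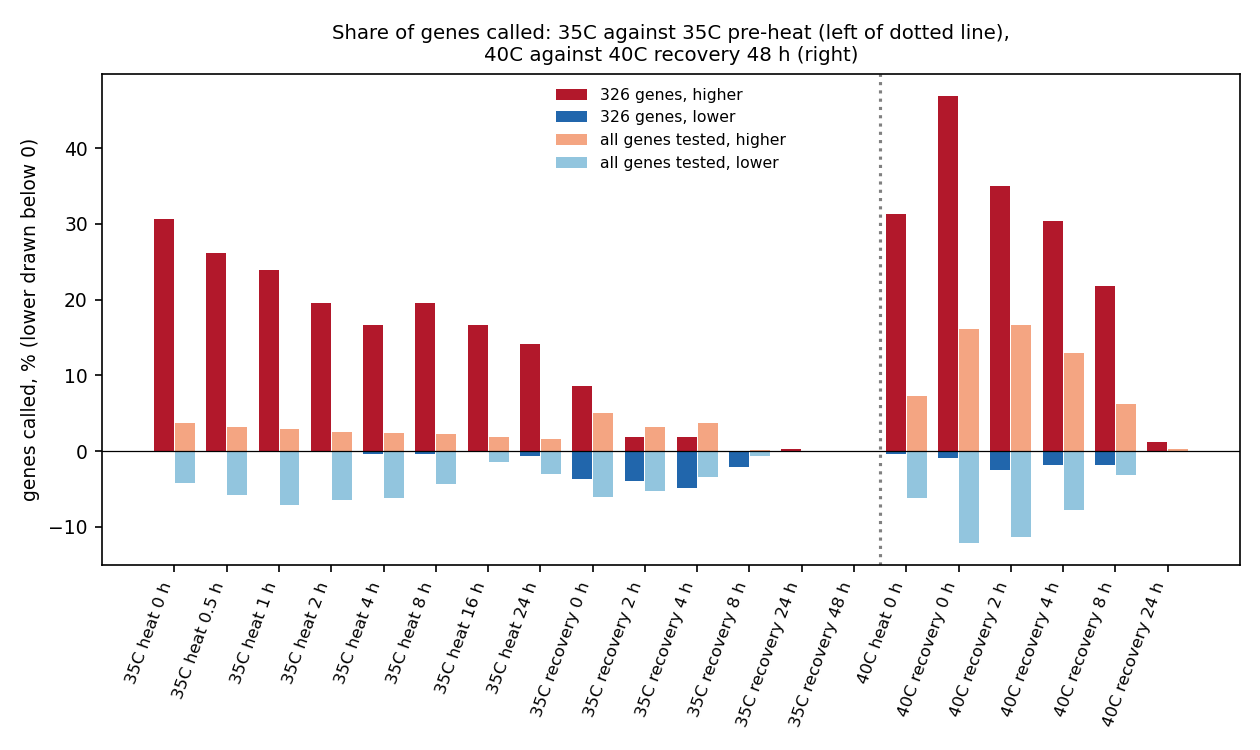
Percent of the 326 genes (dark bars) and of all genes tested (pale bars) called higher (above 0) and lower (below 0) at each sampling of 35°C against 35°C pre-heat, and at 40°C heat 0 h and recovery against 40°C recovery 48 h. Of the 326 genes 30.7% are higher at 35°C heat 0 h and 14.1% at 35°C heat 24 h; after 40°C 46.9% are higher at recovery 0 h and 1.23% at recovery 24 h.

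In 35°C recovery fewer of the genes were up than in 35°C heat. At recovery 0 h, 28 were up and 12 down (5% and 6.09% of all genes), and after 2 h 6 up and 13 down (3.22% and 5.21%). After 4 h 6 were up and 16 down (3.73% and 3.35%), and after 8 h none up and 7 down (0.167% and 0.605%). By 24 h 1 was up and none down (0.0836% and 0%), and by 48 h none was called in either direction by edgeR's quasi-likelihood test, with 4 at an unadjusted p under 0.05 (0% of all genes in each direction). The median log2 fold change at recovery 2 h was -0.06, against 0.06 over all genes. Without 35°C pre-heat replicate A the count up at recovery 2 h was 12. Without the TPM criterion 25 were up and 30 down at recovery 2 h (4.88% and 8.41% of all genes). With library size alone as the scale, 16 were up and 12 down at recovery 2 h, and the share of all calls that were up was 70.8% in place of 38.2%.

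On reaching 40°C many of the genes were already up. Compared with 40°C recovery 48 h, which the d threshold did not use, 102 were up at heat 0 h and 1 down. Their median log2 fold change was 1.33. Over all genes 7.34% were up and 6.16% down, with a median of -0.06. Without the TPM criterion 178 were up and 2 down (10.9% and 11.2% of all genes), and at 40°C recovery 48 h, the base, 223 of the genes (68.4%) averaged under 1 TPM and so could not be called down with it, against 28.8% of all genes. Without heat 0 h replicate A 2 were down. With library size alone as the scale, 95 were up and 3 down, and the share of all calls that were up was 32% in place of 54.4%. The small heat shock proteins had 7 of 9 genes up (median 5.56), the larger ones 8 of 11 (median 2.31) with 1 down, and the DnaJ genes 8 of 15 (median 1.44). For the 35°C cultures, at heat 0.5 h the same lists had 3, 4 and 5 genes up and none down.

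After the return from 40°C the number of genes up declined over 24 h. At recovery 0 h, 153 genes were up and 3 down (16.1% and 12.1% of all genes), with a median log2 fold change of 2.12 against 0 over all genes. At recovery 2 h, 114 were up and 8 down (16.7% and 11.3%), with a median of 0.96 against 0.06. After 4 h 99 were up and 6 down (13% and 7.74%), and after 8 h 71 up and 6 down (6.29% and 3.13%), with a median of 0.78 against 0.01. At recovery 24 h 4 were up and none down (0.283% and 0.0257%), with a median of 0.3 against -0.01. The same base limits the falls that could be called. Without the TPM criterion 232 were up and 11 down at recovery 0 h (21.3% and 19.3% of all genes), 149 up and 38 down at 2 h (19.3% and 20.9%), and 127 up and 13 down at 8 h (9.12% and 5.85%). The 4 genes up at recovery 24 h were HSP22A, HSP22C, Cre03.g161450 and Cre12.g522250. The libraries with the same letter deviated together in these groups (correlations of 0.72, 0.39 and 0.37), and with the letter as a replicate block 10 genes were up and 1 down (0.457% and 0.0515% of all genes). Those 10 held the same 4 genes, and the 1 down was LHCSR3.1, at -1.51 on the log2 scale (edgeR adjusted p = 0.0157). With library size alone as the scale, 133 were up and 7 down at recovery 2 h, and the share of all calls that were up was 75.4% in place of 59.5%. Of the 4 genes, Cre12.g522250 had 2.15, 1.78 and 1.59 TPM at recovery 24 h, against 0.876, 0.89 and 0.635 TPM at recovery 48 h (log2 fold change 1.07 ± 0.24, edgeR adjusted p = 0.00759), a call lost without recovery 24 h replicate A (0.93) or recovery 48 h replicate C (0.97). Leaving out single libraries gave 2 or 3 genes up at recovery 24 h, with 2 without recovery 24 h replicate A or recovery 48 h replicate B or C.

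The direct comparison of the treatments used each treatment's own recovery 48 h as its base. On reaching the temperature the change was higher at 40°C than at 35°C for 32 genes and lower for 18 (2.88% and 2.5% of all genes), with a median difference of -0.1. Without 40°C heat 0 h replicate C the number higher was 13. The number lower was 9 without recovery 48 h replicate A of 40°C or B of 35°C, 10 without heat 0 h replicate C of 40°C or B of 35°C, and 11 without heat 0 h replicate A of 35°C. With library size alone as the scale 23 were higher and 35 lower, and the share of all calls that were higher was 24.7% in place of 53.5%. Cre13.g588453 was one of those higher, with 0.825, 3.47 and 10.2 TPM at 40°C heat 0 h and 0.0624, 0.041 and 0.0242 TPM at 35°C heat 0 h (difference of log2 changes 6.65 ± 1.5, edgeR adjusted p = 0.00201), a call lost without 35°C recovery 48 h replicate C, at 6.16. Cre12.g559704, one of those lower, had 0.0592, 0.0931 and 0.0914 TPM at 40°C and 0.39, 0.491 and 0.282 TPM at 35°C (difference of log2 changes -2.61 ± 0.55, edgeR adjusted p = 0.000947), with groups apart, and Cre12.g518800, a kelch-domain protein, had 1.99, 3.19 and 1.53 TPM at 40°C and 4.6, 6.01 and 3.1 TPM at 35°C (difference of log2 changes -2.94 ± 0.72, edgeR adjusted p = 0.00453).

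At recovery 2 h more of the genes differed between the treatments. The change was higher after 40°C than after 35°C for 103 genes and lower for 15 (8.08% and 12.6% of all genes), with a median difference of 1 against -0.05 over all genes. With limma on log2(TPM + 1) the number lower was 2, and without 35°C recovery 2 h replicate C it was 10. Among those higher were Cre03.g161450, LHCBM9, CCP1, RDP3, DGTT1 and Cre16.g689650, and among those lower Cre03.g183300 and Cre16.g650425 (difference of log2 changes -3.37 ± 0.46, edgeR adjusted p = 1.42e-08). Cre09.g391356, a protein kinase gene under 2 TPM, was also lower, with 0.131, 0.0666 and 0.0166 TPM after 40°C and 0.531, 0.542 and 0.42 TPM after 35°C (difference of log2 changes -2.88 ± 0.39, edgeR adjusted p = 1.43e-08), without overlap. At recovery 24 h edgeR's quasi-likelihood test called no difference in either direction (0% and 0.0386% of all genes), with 22 of the genes at an unadjusted p under 0.05.

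Position on the chromosomes was not used by the rule. On the gene order of the RefSeq annotation, 49 of the 326 (15%) lay directly beside another of them, and 583 of the 15539 tested genes with a place on it (3.75%) lay beside one. The 25 neighbouring pairs included HSP22A with HSP22B, LHCSR3.2 with LHCSR3.1, PSBS1 with Cre01.g016651, SQD3 with PUS6, LIP2 with CPLD13, CSB24 with Cre04.g228300 and DNJ31 with Cre03.g204465, and in none did the annotated spans overlap. By chromosome, the share of tested genes that met the rule ran from 0.865% on chromosome 2 to 3.63% on chromosomes 8 and 14. Gene length was close to that of other genes, with a median of 0.987 times the median gene for the 319 with a value and 1.01 for all genes.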

How the data were processed

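RNA from 90 libraries was analysed, 3 per group in 30 groups. Per the labels and the study's methods, the authors filtered reads, aligned them to the Chlamydomonas genome with STAR, kept reads with a single locus and made the deposited read counts per gene with HTSeq; their tool versions are not stated. The deposited TPM values were made by the authors from these counts, scaled by gene length to a fixed sum per library. Whether counting used strand is not stated.

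Counts of 15541 genes with at least 10 reads in at least 9 libraries were normalized by TMM (factors 0.509 to 1.423) and fitted with edgeR 4.0.16 in R 4.3.3, with 1 mean for each group, all libraries included, and a quasi-likelihood F test. The 35°C samplings were compared with 35°C pre-heat. The 40°C samplings outside the rule were compared with 40°C recovery 48 h. Differences between treatments were interaction terms. The log2 CPM behind d used a prior count of 2. SE was computed as the size of the log2 fold change divided by the square root of F. The steps were checked on simulated data. Libraries with the same letter deviated together (correlation over 0.1 for all 3 letters) in 6 of the 9 comparisons within a treatment and in none of the 3 differences between treatments, with a range of -0.06 to 0.72; what a letter marks is not stated. Alternatives used DESeq2 1.42.0, limma 3.58.1, other scalings and filters, a replicate block and leaving out each library.

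The 326 genes and the lists were chosen with earlier results of these data known. Some lists, such as those of the cell cycle, nitrogen, starch and heat shock protein genes, were the study's own. The antenna, inorganic carbon, lipid, transposon-derived, autophagy, flagella and pherophorin lists were built from gene symbols. So were the DnaJ, chaperonin, cytochrome P450, ABC transporter, cyclase, iron, and ubiquitin and proteasome lists. A list built from symbols misses genes without one. Genes described singly were taken by a rule: the largest mean d, the highest level, list members, the 4 largest rises and falls per comparison, those nearest the threshold, the most and least variable, and further symbols with the largest mean d. Genes described outside it were chosen after their values were seen. Depth was limited by the library totals, and many of these genes had few reads outside heat. Sequences, GC content and promoters were not analysed here.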

Additional observations from a re-analysis of the deposited data

Results flagged for a closer look

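Single genes passed the test of the difference between treatments in both directions. On reaching the temperature, measured against recovery 48 h, the change was higher at 40°C than at 35°C for 32 of the 326 genes and lower for 18, against 2.88% higher and 2.5% lower over all genes. With library size alone as the scale the counts were 23 higher and 35 lower. Without 40°C heat 0 h replicate C 13 were higher, and without 35°C recovery 48 h replicate B 9 were lower. At recovery 2 h it was higher after 40°C for 103 genes and lower for 15, against 8.08% higher and 12.6% lower over all genes. There 2 were lower with limma on log2(TPM + 1), and 10 without 35°C recovery 2 h replicate C. Each is an interaction term in edgeR's quasi-likelihood fit over all genes. The recovery 48 h bases differed, with a median d of 0.33 after 40°C and 0.05 after 35°C. Treatment and photobioreactor cannot be told apart, since the treatments ran in different photobioreactors.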

How the results depend on the processing

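The number of genes that met the rule was 708 with a threshold of 1, 183 with a threshold of 2, 145 when each heat replicate had to pass against each pre-heat replicate and 73 on log2(TPM + 1), 309 with library size alone (271 of them among the 326), and 310 to 334 without replicate A, B or C of all groups. Without the TPM criterion the genes up numbered 206, 174 and 139 at 35°C heat 0.5, 2 and 24 h, 25 at 35°C recovery 2 h (with 30 down), 178 at 40°C heat 0 h (2 down), and 232, 127 and 9 at 40°C recovery 0, 8 and 24 h; 11, 38 and 13 were down at 40°C recovery 0, 2 and 8 h. With limma on log2(TPM + 1) they numbered 55, 31 and 28 at 35°C heat 0.5, 2 and 24 h, 14 up and 7 down at 35°C recovery 2 h, 2 down at 40°C heat 0 h and 1 down at 40°C recovery 8 h, and the changes lower at 40°C than at 35°C numbered 9 at heat 0 h and 2 at recovery 2 h. With library size alone, 16 were up at 35°C recovery 2 h, 3 down at 40°C heat 0 h and 35 lower in the difference at heat 0 h. The median gene then moved by -0.32 at 40°C heat 0 h and 0.48 at 40°C recovery 2 h. The cause of these changes was not tested. For the library-size and limma counts, here and above, the percent of all genes called is not given. The same holds for the 9 genes at 40°C recovery 24 h without the TPM criterion. It also holds for every count with a library left out, above and below, and for the block's gained and lost calls. These counts therefore cannot be set against all genes.

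With a replicate block, 10 genes were up and 1 down at 40°C recovery 24 h. In the difference between treatments the block gained 17 calls at heat 0 h and 12 at recovery 2 h and lost none, and in each other comparison it gained or lost at most 2. Leaving out each library in turn gave 73 to 91, 52 to 64 and 36 to 52 genes up at 35°C heat 0.5, 2 and 24 h, 0 to 4 down at 24 h, 4 to 12 up and 10 to 13 down at 35°C recovery 2 h, and at 40°C 92 to 106 up and 1 to 2 down at heat 0 h, 144 to 157 up and 2 to 3 down at recovery 0 h, 105 to 121 up and 8 to 10 down at 2 h, 65 to 71 up and 4 to 7 down at 8 h, and 2 to 3 up and 0 to 1 down at 24 h. The difference between treatments gave 13 to 45 higher and 9 to 24 lower at heat 0 h, and 94 to 111 higher and 10 to 18 lower at recovery 2 h. Of 4506 alternative values for 304 called comparisons of single genes, 4267 kept their direction and call, 238 lost the call and 1 reversed: FKB62 at 40°C recovery 0 h, at -0.01 without recovery 0 h replicate B, the low end of a range that reached 2.36 without replicate C. Genes near 0 before heat are limited by depth.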
